A study of Homo sapiens with 6 samples.

Results

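Chemokines are small secreted proteins that draw leukocytes along a concentration gradient. CXCL1, CXCL2, CXCL3, CXCL5, CXCL6 and CXCL8 carry a Glu-Leu-Arg motif and recruit neutrophils through the receptors CXCR1 and CXCR2, CCL2 recruits monocytes through CCR2, and CCL20 recruits CCR6-bearing lymphocytes and dendritic cells. Epithelial cells transcribe these genes at low levels and raise them quickly when interleukin 1, tumour necrosis factor or microbial products activate NF-kB, often together with AP-1, and short-lived mRNAs let the levels fall again. The 8 genes were chosen by symbol, with earlier results of these same 6 libraries known, and make up 8 of 57820 Ensembl gene rows. All 6 columns were open to that choice, so the values here are a description, and the p-values given with them are not independent evidence about these genes.

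The values come from the human mammary epithelial line hTert-HME1, which telomerase keeps growing, in which a control siRNA (control-1) or an siRNA named BRCA2-2 had been transfected with RNAiMAX. Polyadenylated RNA was sequenced after recovery and growth in mammary epithelial growth medium that did or did not hold EGF, the ligand of the receptor EGFR. The 4 groups were control siRNA with EGF at passage 4 (1 library), BRCA2 siRNA with EGF at passage 4 (1 library), control siRNA with EGF at passage 6 (2 libraries, A and B) and BRCA2 siRNA without EGF at passage 6 (2 libraries, A and B). All come from 1 cell line and from 1 siRNA of each kind, and control cells without EGF were not analysed here. Only the 2 groups at passage 6 are replicated, so each p-value measures the spread between those libraries and nothing wider.

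The labels were checked before the results. BRCA2 stood at 10.88 on the deposited log2 scale in the library labelled BRCA2 siRNA at passage 4 and at 10.19 in its control, which goes against the label, and at 11.15 and 10.89 against 11.25 and 11.24 at passage 6. Groups are therefore called by their labels throughout. Over 14763 genes with a readable level the 2 passage 6 controls were the closest pair, with an SD of their differences of 0.119, against 0.308 for the 2 libraries without EGF. The passage 4 control lay farther from the passage 6 controls (0.485 and 0.509) than the library labelled BRCA2 siRNA at passage 4 did (0.290 and 0.321). Keratins of basal mammary cells were abundant in every library, while the epithelial marker EPCAM lay between -0.18 and 0.09. Of 10 leukocyte markers none reached a readable level, their summed linear value (2 raised to the log2 value) was 23 to 25 in every library, and FCGR3B, CD3E and TYROBP were at 0 throughout. The depth of the libraries is unknown, since only normalised values are in the table.

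Of the 8 genes, 5 had a mean linear value of at least 10 and were tested: CXCL1, CXCL2, CXCL3, CXCL8 and CCL20. CXCL5, CXCL6 and CCL2 were too low to read. The promoters of the 5 readable genes are shown because 3 of them, CXCL1, CXCL3 and CXCL8, had the same library far above the other 5. Each line gives the 150 bases before the transcription start from RefSeq (GRCh38.p14), 5′ to 3′ on the gene's own strand, with capitals for a kappaB-like match, a pattern like the sites that NF-kB dimers are known to bind. CXCL1 is read from chr4:73869243-73869392 on the plus strand, CXCL2 from chr4:74099196-74099345 and CXCL3 from chr4:74038690-74038839 on the minus strand, CXCL8 from chr4:73740419-73740568 and CCL20 from chr2:227813692-227813841 on the plus strand.
CXCL1: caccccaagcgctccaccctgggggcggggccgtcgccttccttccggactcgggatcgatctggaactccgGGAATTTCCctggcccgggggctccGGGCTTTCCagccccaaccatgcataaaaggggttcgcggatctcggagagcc
CXCL2: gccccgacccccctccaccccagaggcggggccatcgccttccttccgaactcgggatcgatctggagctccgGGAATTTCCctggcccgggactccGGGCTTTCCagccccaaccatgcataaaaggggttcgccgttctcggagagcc
CXCL3: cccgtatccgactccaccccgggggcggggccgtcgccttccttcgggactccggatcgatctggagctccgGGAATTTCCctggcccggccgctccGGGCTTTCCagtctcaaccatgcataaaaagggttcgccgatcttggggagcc
CXCL8: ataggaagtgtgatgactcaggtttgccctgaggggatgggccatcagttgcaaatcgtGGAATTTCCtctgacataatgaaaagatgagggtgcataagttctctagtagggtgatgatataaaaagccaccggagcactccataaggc
CCL20: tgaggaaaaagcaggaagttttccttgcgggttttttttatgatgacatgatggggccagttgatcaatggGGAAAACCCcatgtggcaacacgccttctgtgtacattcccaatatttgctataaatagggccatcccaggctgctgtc

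The pattern searched was GGNNTTTCC on both strands, and AP-1 was searched as TGANTCA, which reads the same on both; the patterns share no match. CXCL1 and CXCL3 held kappaB-like matches that begin 78 and 53 bases before the start, and those of CXCL2 begin at 77 and 53 bases. CXCL8 held 1 such match at 91 bases and CCL20 held 1 at 79 bases. CXCL5 and CXCL6, which were too low to read, also held 1 each, at 90 and 89 bases. The AP-1 pattern was found in CXCL8 alone of the 5, at 137 bases. Among 35116 RefSeq promoters, 3.46% hold the kappaB-like pattern and 4.17% the AP-1 pattern in the same 150 bases. The windows of CXCL1, CXCL2 and CXCL3 were 86.3% to 88.8% identical to each other, and CXCL8 shared 44% to 46.8% of aligned positions with those 3. A match of letters describes the sequence and is no measurement of binding.

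These 3 genes are close paralogs in their transcripts as well. Of all 50-base stretches in the longest coding transcript, 5.73% in CXCL1, 9.24% in CXCL2 and 5.26% in CXCL3 also occur in another of the 3, and at 75 bases the shares were 0.293%, 2.27% and 2.3%. The read length and the handling of reads that map to several places were not given in the sources used here, so the split of reads between CXCL1, CXCL2 and CXCL3 is uncertain to that extent. CXCL6, CXCL8, CCL2 and CCL20 shared no 50-base stretch with another gene. CXCL5 shared 1.12% of its stretches, all with GLYR1.

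CXCL1 (ENSG00000163739), a neutrophil attractant, had a log2 value of 10.34 in the passage 4 control and 13.69 in the library labelled BRCA2 siRNA at passage 4. It stood at 11.44 and 11.18 in passage 6 controls A and B, and at 10.48 and 10.57 in libraries A and B without EGF. The library labelled BRCA2 siRNA with EGF was thus 2.25 above the next highest. The passage 6 controls followed at 11.31 ± 0.18 (SD, n = 2), above both libraries without EGF at 10.53 ± 0.06 (SD, n = 2) with no overlap. The passage 4 control lay lowest, 0.18 below the mean without EGF, and as a single library it has no spread against which to set that gap.

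CXCL8 (ENSG00000169429), which encodes interleukin 8, followed the same order at the top. Its values were 9.26 in the passage 4 control, 11.77 in the library labelled BRCA2 siRNA at passage 4, 9.48 and 9.23 in the passage 6 controls, and 8.52 and 8.90 without EGF. One library was 2.28 above the rest, the 3 controls lay close together, and both libraries without EGF were below every control. The group means at passage 6 were 9.36 ± 0.18 with EGF and 8.71 ± 0.27 without it (SD, n = 2 each).

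CXCL3 (ENSG00000163734), a further neutrophil attractant, gave 8.27 in the passage 4 control, 10.97 in the library labelled BRCA2 siRNA at passage 4, 8.55 and 8.25 in the passage 6 controls, and 7.61 and 8.53 without EGF. Again 1 library stood 2.43 above the others. Here the pair without EGF (8.07 ± 0.65) overlapped the passage 6 controls (8.40 ± 0.21; SD, n = 2 each), and the order of the remaining groups is not separated by their spread.

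CXCL2 (ENSG00000081041), also a neutrophil attractant, was ordered differently. It had 9.41 in the passage 4 control, 10.25 in the library labelled BRCA2 siRNA at passage 4, 8.55 and 8.48 in the passage 6 controls, and 8.40 and 9.65 without EGF. The library labelled BRCA2 siRNA with EGF was highest by 0.60, and the next was library B without EGF, which was 1.26 above its own replicate. That replicate pair spans the values of all 3 controls, at 9.03 ± 0.89, while the passage 6 controls were at 8.52 ± 0.05 (SD, n = 2 each).

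CCL20 (ENSG00000115009), the ligand of CCR6, was the lowest gene that could be tested, with a mean linear value of 35. Its log2 values were 4.60 in the passage 4 control, 5.82 in the library labelled BRCA2 siRNA at passage 4, 5.08 and 4.87 in the passage 6 controls, and 4.63 and 5.38 without EGF. The same library was highest, by 0.43, and library B without EGF came next, as for CXCL2. The means of 4.98 ± 0.14 in the passage 6 controls and 5.00 ± 0.53 without EGF (SD, n = 2 each) differed by less than the spread.

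**Figure D1:**
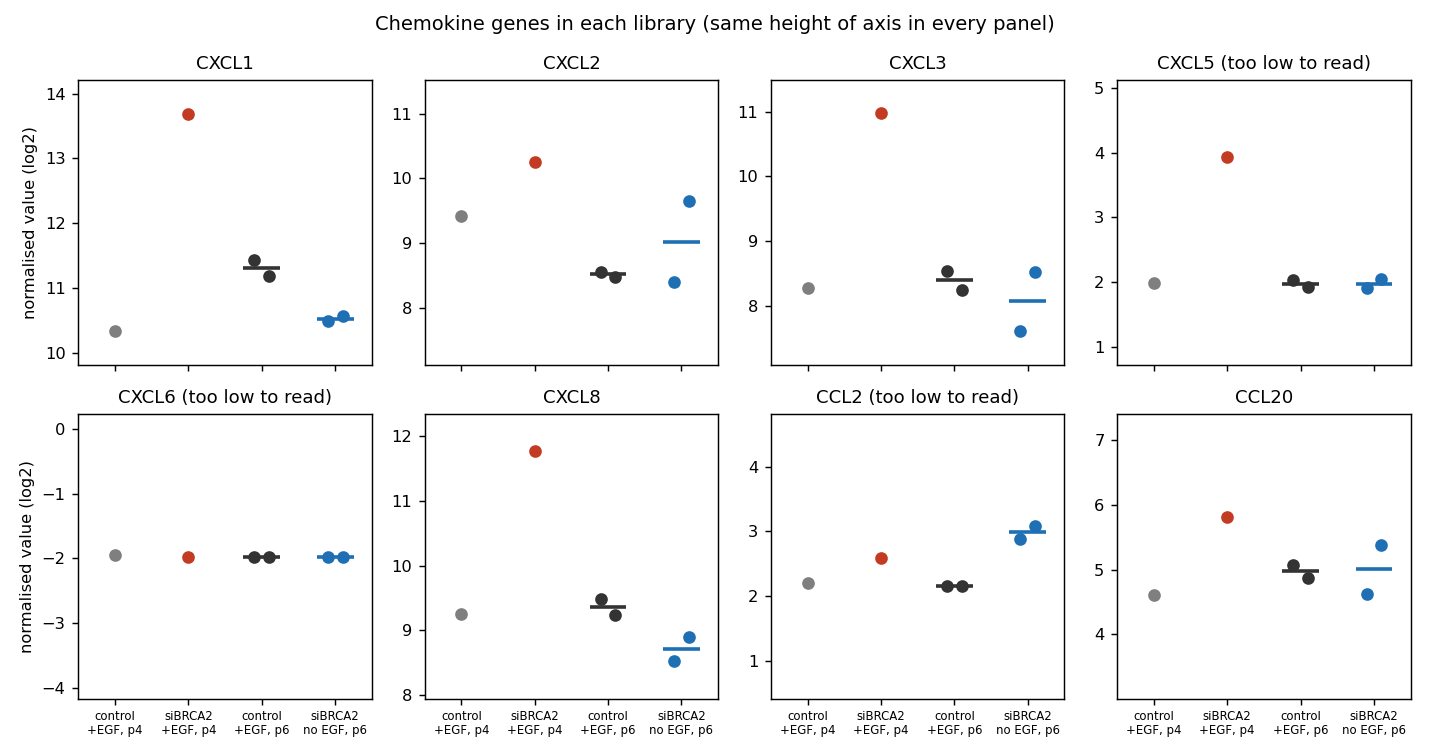
Normalised log2 value (vertical axis) of each of the 8 chemokine genes in the 6 libraries, grouped on the horizontal axis by labelled siRNA, EGF and passage (p4, p6); points are libraries and bars are means of the 2 replicates. All panels span the same height, and the library labelled BRCA2 siRNA with EGF stands alone for CXCL1 at 13.69, CXCL8 at 11.77 and CXCL3 at 10.97.

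The 3 genes below the readable level are given as values only. CXCL5 (ENSG00000163735), a further CXCR2 ligand, was between 1.91 and 2.04 in 5 libraries and 3.94 in the library labelled BRCA2 siRNA at passage 4. CXCL6 (ENSG00000124875) lay between -1.98 and -1.95 everywhere, with no library apart from the others. CCL2 (ENSG00000108691), the monocyte attractant, was at 2.88 and 3.08 without EGF, at 2.59 in the library labelled BRCA2 siRNA at passage 4 and at 2.15 to 2.20 in the 3 controls. It was the 1 gene of the 8 with its highest value in a library without EGF (B). Their mean linear values were 5.84 for CXCL5, 0.255 for CXCL6 and 5.89 for CCL2, and no test was made on them.

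The passage 4 libraries, both grown with EGF, differ in their labels by siRNA only, with 1 library on each side and therefore no test. Any other difference between the 2 libraries enters this contrast too and cannot be told apart from siRNA. On the log2 scale CXCL1 was 3.35 higher in the library labelled BRCA2 siRNA (10.2-fold), CXCL3 2.70 higher (6.5-fold) and CXCL8 2.51 higher (5.71-fold). Over the 14763 genes these were the differences of rank 1, 2 and 3. CCL20 was 1.22 higher (2.32-fold, rank 74) and CXCL2 0.84 higher (1.79-fold, rank 311). With a difference of 1 as the mark, 4 of the 5 readable genes lay past it, against 1.17% of genes tested (173). This contrast was among those in view when the genes were chosen, so that count is descriptive.

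**Figure D2:**
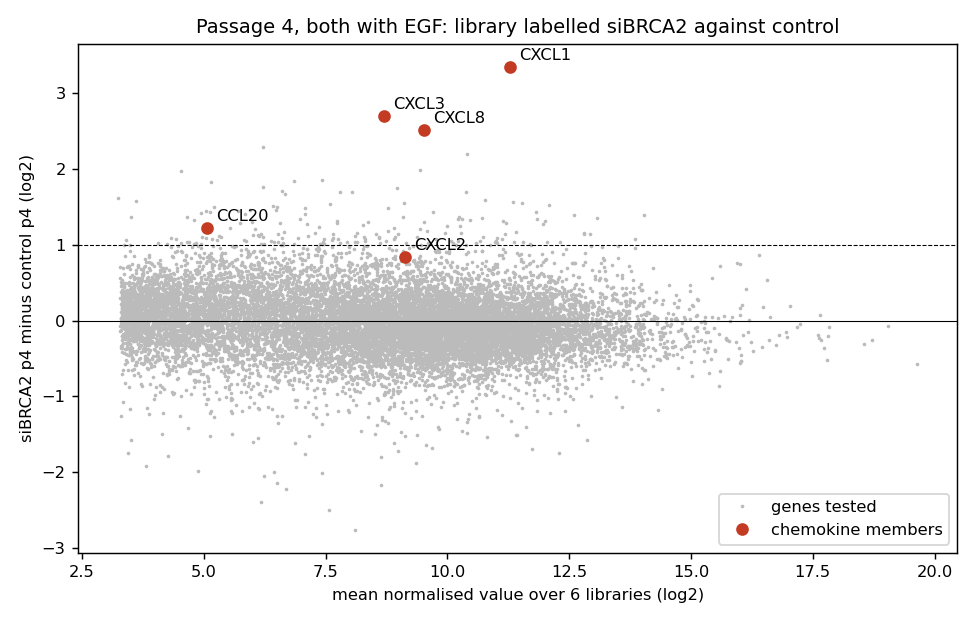
Difference between the 2 passage 4 libraries (labelled BRCA2 siRNA minus control, log2, vertical axis) against the mean normalised log2 value over 6 libraries (horizontal axis) for the 14763 genes tested, with the 5 readable chemokine genes in red and a dashed line at 1. CXCL1 (3.35), CXCL3 (2.70) and CXCL8 (2.51) lie above every grey point, while CXCL2 (0.84) lies under the line.

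Because the passage 4 control stood apart from the other controls, the same library was also set against the passage 6 controls, a choice made after seeing the data in which passage differs too. CXCL1 was then 2.38 higher (5.2-fold), CXCL3 2.58 (5.96-fold), CXCL8 2.41 (5.32-fold), CXCL2 1.74 (3.33-fold) and CCL20 0.84 (1.79-fold). With these controls 4 of the 5 were again at least 1 higher, but with CXCL2 in place of CCL20. CXCL1 thus came out smaller than against the passage 4 control and CXCL2 larger, and CXCL3 and CXCL8 differed little between the 2 choices of control. In absolute order, the library labelled BRCA2 siRNA with EGF was the highest of 6 for 5 of 5 readable genes, as it was for 14.2% of genes tested. It was highest by at least 1 for 3 of the 5 (CXCL1, CXCL3 and CXCL8), against 0.135% of genes tested (20 genes).

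By that gap to the next highest library, CXCL3, CXCL8 and CXCL1 ranked 1, 2 and 3 among the 2092 genes that peak there, CXCL2 ranked 62 and CCL20 113. The genes next in order with a mean linear value of at least 50 included DEPP1 (gap 1.50), GSDMC (1.45), S100A9 (1.37), STC1 (1.33), HEPHL1 (1.28), KYNU (1.23), S100A8 (1.22) and CSF2 (1.01). S100A8 and S100A9 encode the subunits of calprotectin, an abundant neutrophil and epithelial protein, and CSF2 encodes the myeloid growth factor GM-CSF. These genes were picked after their values were seen. Fibroblast markers also had a higher summed linear value in that library, 4387 against 2263 to 2633 in the 3 controls. The sum was higher still in the 2 libraries without EGF, at 6980 and 7139. In the library labelled BRCA2 siRNA at passage 4, 3 of 9 readable markers were at least 1 higher than in the passage 4 control (COL3A1, DCN and LUM). None of the list of 11 was at 0. Whether these markers bear on the chemokine values was not tested. In bulk RNA of this kind, more cells that express a gene and more RNA per cell cannot be told apart.

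At passage 6 the libraries labelled BRCA2 siRNA without EGF were set against control siRNA with EGF, so siRNA and medium differ together and cannot be told apart. Differences given below as at passage 6 without EGF are all of this joint contrast. CXCL1 fell by 0.78 on the log2 scale without EGF (SE 0.11, 1.72-fold lower, adjusted p = 0.0325 by limma with Benjamini-Hochberg adjustment over 14763 genes). It was the 1 of 5 readable genes past an adjusted p of 0.05, against 6.44% of genes tested (950). CXCL8 gave a difference of -0.64 (SE 0.17, limma adjusted p = 0.0823), CXCL3 of -0.33 (SE 0.32, 0.521), CXCL2 of 0.51 (SE 0.42, 0.44) and CCL20 of 0.03 (SE 0.27, 0.95). The 2 groups did not overlap for 2 of the 5, CXCL1 and CXCL8, while 64.9% of genes tested did not overlap. The call on CXCL1 was lost when either control was left out: without passage 6 control A its difference was -0.65 with a limma adjusted p of 0.284, and without control B it was -0.91 with 0.133. Without library B in the group lacking EGF the difference of CXCL2 turned from 0.51 to -0.12 and that of CCL20 from 0.03 to -0.35, and without library A that of CXCL3 turned from -0.33 to 0.13. Leaving out either of these libraries left the 2 controls as the only replicated group, and then 4 of 5 were called without A (CXCL1, CXCL2, CXCL8 and CCL20) and 3 without B (CXCL1, CXCL3 and CXCL8).

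Passage was compared within control siRNA and EGF, with 2 libraries at passage 6 and 1 at passage 4. CXCL1 rose by 0.97 (SE 0.14, 1.96-fold, limma adjusted p = 0.0245) and was again the 1 gene of 5 called, against 20.1% of genes tested (2963). CXCL2 was 0.90 lower at passage 6 (SE 0.51, limma adjusted p = 0.244), CCL20 0.38 higher (SE 0.34, 0.44), CXCL3 0.13 higher (SE 0.40, 0.83) and CXCL8 0.10 higher (SE 0.20, 0.732). The passage difference of CXCL1 in the controls is thus opposite in sign to that of CXCL2, and only the former passed. The call was lost without control A (limma adjusted p = 0.173) or control B (0.206), and CXCL2 and CCL20 were called too where a library lacking EGF was left out of the fit.

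Within the label BRCA2 siRNA, the 2 libraries without EGF at passage 6 were compared with the 1 library with EGF at passage 4, so EGF and passage differ together. CXCL1 fell by 3.16 without EGF (SE 0.14, 8.96-fold lower, limma adjusted p = 0.0112), CXCL8 fell by 3.06 (SE 0.20, 8.32-fold lower, 0.0126) and CXCL3 fell by 2.90 (SE 0.40, 7.48-fold lower, 0.0239). CXCL2 differed by -1.23 (SE 0.51, limma adjusted p = 0.156) and CCL20 by -0.81 (SE 0.34, 0.156). The calls made 3 of 5, against 16.3% of genes tested (2406), and 5 of 5 where either library without EGF was left out. This comparison shares its single library with the passage 4 contrast and its other libraries with the passage 6 contrast, so it repeats the high values already given and adds no independent measurement of them.

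**Figure D3:**
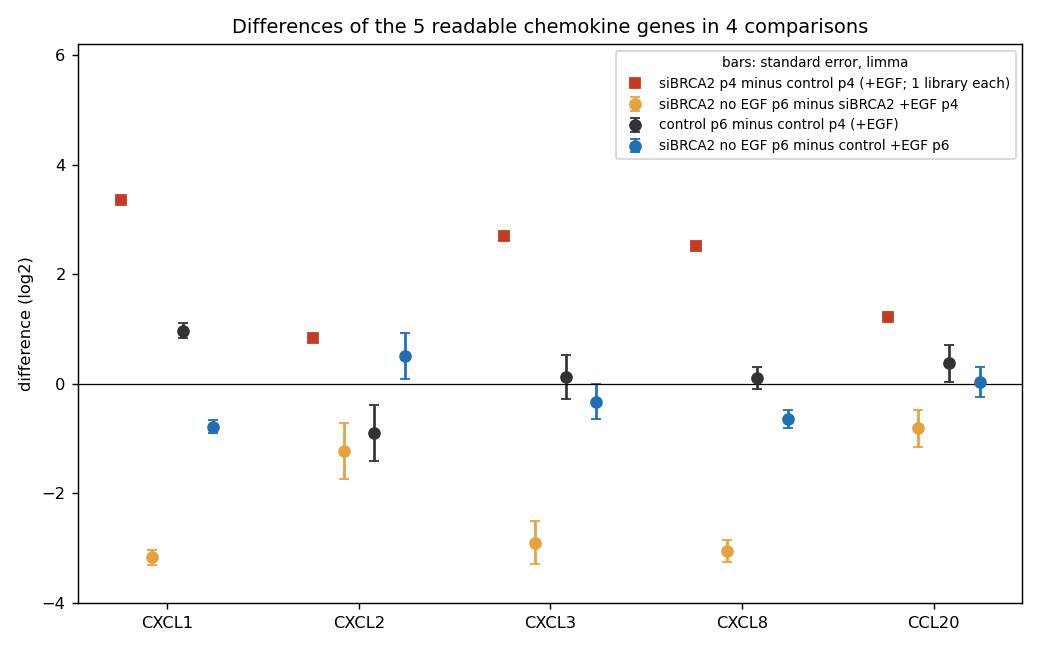
Log2 difference (vertical axis) of the 5 readable chemokine genes (horizontal axis) in 4 comparisons that share libraries, with limma standard errors as bars where a group is replicated; squares have 1 library on each side and no error. CXCL1, CXCL3 and CXCL8 lie between 2.51 and 3.35 in the passage 4 contrast and between -3.16 and -2.90 in the contrast within the BRCA2 siRNA label, and within 1 of zero in the others.

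The readable genes fell into closer and looser pairs over the 6 libraries, measured as the root mean square difference of log2 values after each gene's mean was taken off (0 is identical). CXCL3 and CXCL8 were closest at 0.21, followed by CXCL1 and CXCL8 at 0.32 and CXCL1 and CXCL3 at 0.38. CXCL2 was closer to CCL20 (0.48) than to its paralogs CXCL3 (0.67) and CXCL1 (0.96), although its promoter and transcript resemble those paralogs most. Outside the 8 genes, those closest to CXCL1 were STC1 (0.52), S100A9 (0.56), GSDMC (0.56), CSF2 (0.58) and SULT1B1 (0.59). Those closest to CCL20 were TNFAIP6 (0.15), PTGS2 (0.23), MYOSLID (0.23), NNMT (0.24) and ZC3H12C (0.24). TNFAIP6 is a secreted hyaluronan-binding protein and PTGS2 is the inducible cyclooxygenase. The measure covers 6 libraries with unequal groups. The genes were not scaled, so it reflects the size of their differences as well as the shape. Over the 6 libraries CXCL2 ranged by 1.86 and CCL20 by 1.22, against 3.36 for CXCL3 and 3.35 for CXCL1. The closeness of CXCL2 to CCL20 is therefore not one of shape alone.

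The 2 replicates without EGF differed from each other in several of these genes. Library B was above library A by 1.26 for CXCL2, 0.92 for CXCL3, 0.75 for CCL20, 0.38 for CXCL8 and 0.09 for CXCL1. Of 17 readable NF-kB subunits and inhibitors, 16 were likewise higher in B (all but CHUK), with a median of 0.58, while 49.3% of all genes tested were higher in B, with a median of -0.0033. TNFAIP3, a deubiquitinase that restrains NF-kB signalling and is itself induced by it, had 11.51 in A and 12.62 in B, and RELB had 7.70 and 8.87. IL6 had 4.95 in A and 6.63 in B, near the 6.64 and 7.08 of the passage 4 libraries and above the 4.77 and 4.81 of the passage 6 controls.

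NF-kB subunits carry a signal that induces these genes, and the inhibitors restrain it. In the passage 4 contrast 9 of 17 readable members were above 0, with a median of 0.01 (-0.04 over all genes), none was at least 1 higher and 1, the subunit REL, was at least 1 lower (-1.01). That contrast rests on the single passage 4 control, which stood apart from the other controls. REL was 9.41 in the library labelled BRCA2 siRNA, below 10.42 in that control but above 9.13 and 9.07 in the passage 6 controls. TNFAIP3 was 12.45 there, against 11.44 and 11.18 in the passage 6 controls, and TNIP1 was 13.06 against 12.07 and 11.97. In that library IKBKB alone of the readable list was below both passage 6 controls, at 10.44 against 10.49 and 10.48. Every other readable member was above both. Passage differs in this comparison too, and it was made after seeing the data. At passage 6 without EGF 16 of 17 were above 0 with a median of 0.27 (-0.02 over all genes). That count came from library B, which was above the control mean for 16 of 17 with a median of 0.55, while library A was above it for 8 of 17 with a median of -0.0056. The 1 member that passed was CHUK, the kinase IKK-alpha, which fell by 0.53 (limma adjusted p = 0.0329). REL (0.77, limma adjusted p = 0.0924), TNFAIP3 (0.75, 0.24) and RELB (0.68, 0.298) did not pass. Between the controls 3 of 17 members fell at passage 6 and none rose, where 20.1% of all genes tested were called, with a median of -0.62 (-0.03 over all genes). They were REL, which fell by 1.32 (limma adjusted p = 0.0367), TNIP1, which fell by 1.03 (0.0495), and RELA, which fell by 0.71 (0.0491). The list was written with earlier results of these data known.

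Cytokines, receptors and adapters upstream of NF-kB had 21 of 30 readable members. In the passage 4 contrast the median was 0.15, 15 lay above 0, and none reached 1 in either direction. IL1B, a strong inducer of these chemokines, was 0.72 higher there, with log2 values of 11.09 in the control and 11.81 in the library labelled BRCA2 siRNA. IL1A went the other way, 0.22 lower, at 12.25 and 12.03 in the same order. At passage 6 without EGF 2 of 21 were called higher and 1 lower, where 6.44% of all genes tested were called. TLR3, the sensor of double-stranded RNA, rose by 0.99 (limma adjusted p = 0.0199), IL17RC rose by 0.58 (0.0334) and TLR4, the lipopolysaccharide receptor, fell by 2.25 (0.00875). TLR6 (-0.56, limma adjusted p = 0.11), IL33 (-0.53, 0.1) and IL1B (-0.50, 0.159) did not pass. Within the BRCA2 siRNA label, where 16.3% of all genes tested were called, 6 of 21 members fell without EGF, IL1B among them by 1.63 (limma adjusted p = 0.0251) and the bacterial lipoprotein receptor TLR2 by 1.40 (0.0174). Those that rose were TLR3, TLR5 and IL17RC (3).

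Other epithelial cytokines and inflammatory genes had 17 of 20 members readable. In the passage 4 contrast 14 were above 0 with a median of 0.44, 6 were at least 1 higher, as were 1.17% of all genes tested, and none was at least 1 lower. The 6 were CSF3 (1.99), CSF2 (1.84), S100A9 (1.70), SAA2 (1.42), S100A8 (1.41) and SAA1 (1.03). CSF3 encodes the neutrophil growth factor G-CSF, and its log2 values were 8.89 in the passage 4 control, 10.88 in the library labelled BRCA2 siRNA there, 10.04 and 10.01 in the passage 6 controls, and 8.74 and 8.06 without EGF. CSF3 was therefore highest in the same library as CXCL1 and lower without EGF than in the passage 6 controls, where it fell by 1.62 (limma adjusted p = 0.0328). In that passage 6 comparison 4 members rose and 1 fell, where 6.44% of all genes tested were called. EDN1, which encodes the vasoconstrictor endothelin-1, rose by 2.23 (limma adjusted p = 0.0377), CSF1, a macrophage growth factor, by 1.08 (0.0326), and the acute-phase genes SAA1 and SAA2 by 1.06 (0.0309) and 0.72 (0.0453). IL32 (1.35, limma adjusted p = 0.0601), IL6 (1.0, 0.278) and ICAM1 (0.84, 0.171) did not pass.

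Factors that bind and degrade chemokine mRNAs, or protect them, were all readable (10). None passed at passage 6 without EGF, the largest differences being those of ELAVL1 (-0.44, limma adjusted p = 0.0915), KHSRP (-0.30, 0.102) and ZC3H12A (0.26, 0.146). ZC3H12A, the endonuclease Regnase-1, was 0.80 higher in the library labelled BRCA2 siRNA in the passage 4 contrast and fell by 1.08 without EGF within that label (limma adjusted p = 0.018).

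Genes of the EGFR, ERK and AP-1 branch were all readable (22). At passage 6, without EGF and with the BRCA2 siRNA label, 9 fell, none rose, and the median was -0.63. Of all 14763 genes tested 425 fell and 525 rose there (6.44% in all), and their median was -0.02. FOSL1, an AP-1 subunit, fell by 1.38 (limma adjusted p = 0.0162), SPRY4, a feedback inhibitor of ERK signalling, fell by 1.64 (limma adjusted p = 0.0217), DUSP6, an ERK phosphatase, fell by 1.56 (0.0188), and the EGFR ligand TGFA fell by 0.84 (0.0151). ETV5, ETV4, DUSP4, SPRY2 and DUSP5 made up the 9. FOS (-1.13, limma adjusted p = 0.0633) and HBEGF (-0.87, 0.0735) did not pass, nor did ATF3 (1.0, 0.357). In the passage 4 contrast, with EGF on both sides, 13 of 22 were above 0, the median was 0.05, none was at least 1 higher and the AP-1 genes FOSB (-2.05) and ATF3 (-1.47) were at least 1 lower. Both were higher in the single passage 4 control than in the passage 6 controls. FOSB was 8.33 in that control, 6.28 in the library labelled BRCA2 siRNA, and 5.74 and 5.77 in the passage 6 controls. ATF3 was 10.05, 8.57, and 8.46 and 8.36 in the same order. EGFR itself was at 15.82 and 15.15 in the passage 4 control and the library labelled BRCA2 siRNA, at 15.34 and 15.39 in the passage 6 controls and at 15.67 and 16.25 without EGF.

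**Figure D4:**
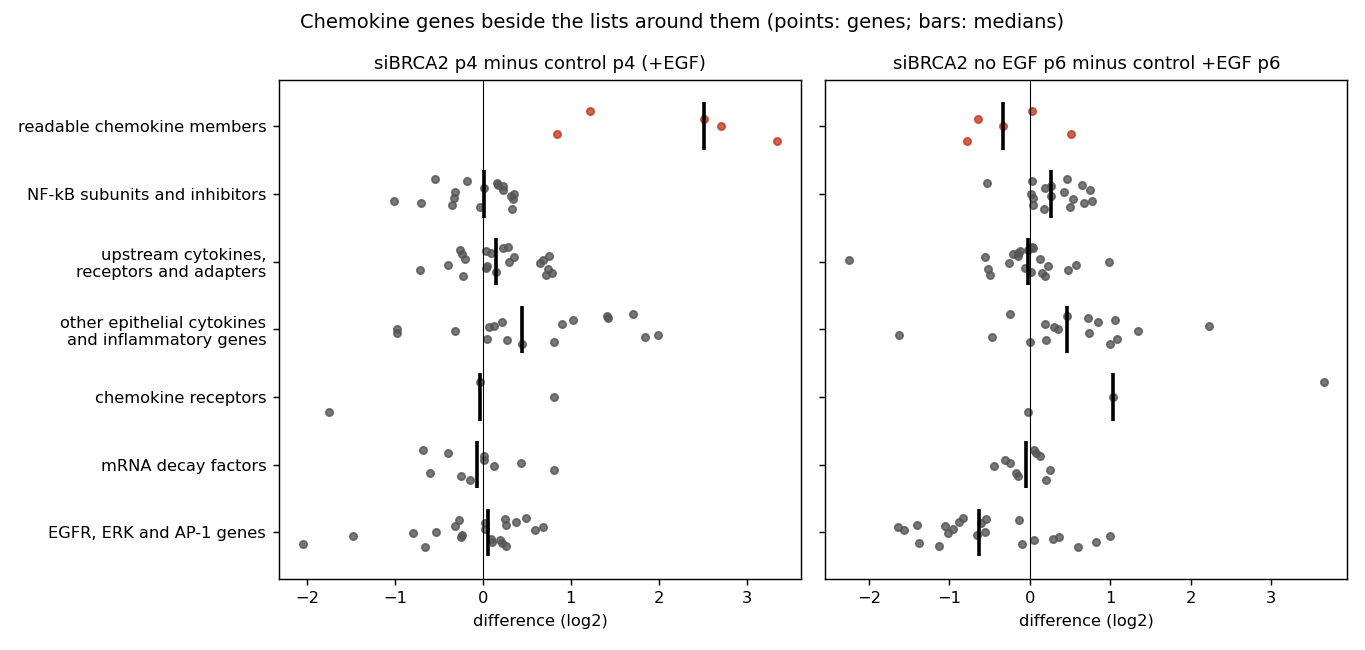
Log2 difference (horizontal axis) of the 5 readable chemokine genes (red) and of readable members of 6 lists (grey), with points for genes and bars for medians, in the passage 4 contrast (left, 1 library on each side) and the passage 6 contrast (right). The passage 4 control used on the left stood apart from the passage 6 controls. On the left the chemokine median is 2.51, for genes chosen with these values known, and the list medians run from -0.07 to 0.44; on the right the EGFR, ERK and AP-1 median is -0.63.

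Receptors for these chemokines were mostly below the readable level. Of 23 chemokine receptor genes, 3 were readable, CCR1, ACKR1 and ACKR3, and CXCR1 and CXCR2 were not. ACKR1 and ACKR3 are atypical receptors that bind chemokines without G protein signalling. ACKR1 binds CXCL1, CXCL8 and CCL2. At passage 6, without EGF and with the BRCA2 siRNA label, it rose by 1.03 (limma adjusted p = 0.0284), from 7.27 and 7.49 to 8.54 and 8.28. ACKR3 rose by 3.66 (limma adjusted p = 0.00379). CCR1 had 4.77 in the passage 4 control and 3.01 to 3.40 elsewhere. Of 36 other chemokine genes, 28 were matched by symbol and 2 of these were readable, CXCL16 and CCL28, neither of which was called in any of the 3 tested comparisons. CXCL16 differed by 0.39 at passage 6 without EGF (limma adjusted p = 0.161).

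Marker genes of other cell types also differed between the groups and are given beside the chemokine values. Of 9 readable fibroblast markers, 2 were highest in the library labelled BRCA2 siRNA at passage 4, as CXCL1 was. They were DCN (10.11) and LUM (8.82), and the rest were highest in a library without EGF. At passage 6 without EGF, 6 of 9 readable fibroblast markers rose and none fell (COL3A1 by 1.75, limma adjusted p = 0.0176), where 525 of 14763 genes rose and 6.44% were called in either direction, and their summed linear value was 6980 and 7139 against 2263 and 2633 in the controls. Summed basal epithelial markers were 633521 and 553150 without EGF and 345276 to 394795 in the 4 libraries with EGF, where 11 of 12 were readable. KRT5 and KRT14, the highest of that list, weigh most in the sum. In the same passage 6 comparison 5 of these markers rose and 1 fell, KRT18 by 0.85 (limma adjusted p = 0.0162). ITGA6 (-0.11) and KRT8 (0.01) did not pass. Of 5 endothelial markers matched by symbol, KDR and TEK were readable and CDH5 was at 0 in every library, with a sum of 1103 in the passage 4 control and 286 to 782 in the others. Whether any of these bear on the chemokine values was not tested.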

How the data were processed

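The authors deposited 1 table of normalised log2 values for 57820 Ensembl genes and 6 libraries. TopHat2 2.0.11, DESeq2 and hg19 are named per the submitters' processing notes, and the labels' protocols name a ScriptSeq kit after bead purification of mRNA. The transformation, counter and annotation were not given in the sources used here. Values below 0 occur (lowest -1.98), and 25986 rows were 0 in all libraries and 0 rows in some only. If a shrinking transformation was used, differences of low genes are understated. Depth is unknown, so count models and counting intervals were not used, and 0 columns were left without a sample.

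Symbols were matched on Ensembl identifiers (96.38% of tested genes). Genes with a mean linear value of at least 10 were fitted in limma 3.58.1 (R 4.3.3; trend and robust prior, two-sided) on the log2 values, with 4 group means over 6 libraries and 2 residual degrees of freedom, and adjusted over 14763 genes at 0.05. The passage 4 pair has no test. The procedure was tested on simulated data.

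The 8 genes and the 11 lists were chosen with earlier results of these data known. Named list genes are those called at passage 6 and up to 3 more by size of difference with a mean of at least 20, and likeness names 5 genes with a mean of at least 50 beside CXCL1 and CCL20. CSF2, S100A8, S100A9, DEPP1, HEPHL1, KYNU and GSDMC by their gaps, values of CCR1 and genes named from other comparisons were chosen after values were seen. Of 198 list symbols 188 were matched. Promoters came from the RefSeq table (GRCh38.p14), which held 7 of the 8 genes, and shared stretches from GENCODE transcripts. Alternatives changed the filter, scaling, prior, block, controls and libraries.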

Additional observations from a re-analysis of the deposited data

How the results depend on the processing

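Only 2 groups are replicated, with 2 libraries each, so the counts of calls depend heavily on which libraries are kept. Without EGF against passage 6 controls, 950 genes and 1 chemokine gene were called. With no filter on low values the counts were 76 and 0, with controls A and B averaged 46 and 0, with the controls of both passages as 1 group 146 and 0, and leaving out 1 replicate in turn gave 42 to 8964 genes and 0 to 4 chemokine genes. The high counts arise where a library without EGF is left out, when the 2 controls are the only replicated group. For passage 6 against passage 4 controls (2963 genes, 1 chemokine gene) the counts were 0 and 0 with no filter (7341 genes at an unadjusted p under 0.05 in limma), 0 and 0 with controls averaged (2770), and 0 to 9849 genes and 0 to 3 chemokine genes leaving out 1 replicate (2959 and 2674 unadjusted where 0 were called). Within the BRCA2 siRNA label (2406 genes, 3 chemokine genes) they were 0 and 0 with no filter (7066), 203 genes with controls averaged, and 203 to 9215 genes and 3 to 5 chemokine genes leaving out 1 replicate. With passage 6 in place of passage 4 controls, 100 genes rather than 173 were at least 1 higher at the BRCA2 siRNA label with EGF.

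The main fit did not pair the samples by replicate letter. The A minus B differences of the 2 groups correlated at -0.172 over genes, which alone cannot settle whether the letters mark pairs. With the letter as a replicate block the counts were 1232, 2721 and 937 genes in the 3 tested comparisons, and with crossed letters, an alternative added after seeing the data, the replicate block gave 1795 in the first. Some directions turned. CCL20 without EGF was -0.090 after quantile normalisation and -0.35 to 0.41 leaving out 1 replicate, where CXCL2 ran from -0.12 to 1.14 and CXCL3 from -0.79 to 0.13. Between the controls CXCL3 was -0.029 with the replicate block and -0.024 to 0.27 leaving out 1 replicate, and CXCL8 was -0.026 to 0.23. The call on CXCL1 without EGF was also lost with no filter (limma adjusted p = 0.103), controls averaged (0.192) and both passages as 1 group (0.505), and its passage call with no filter (0.0746) and controls averaged (0.186). The calls on CXCL1, CXCL8 and CXCL3 within the BRCA2 siRNA label were lost with no filter only (0.0594, 0.0594 and 0.0752). Over 172 alternatives for single chemokine genes in the 3 tested comparisons, 139 kept the direction and the side of the threshold. In the untested passage 4 contrast CCL20 dropped under the mark of 1, to 0.84, with passage 6 controls, and CXCL2 passed it, at 1.74.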
